A study of Mus musculus with 2 samples.

Results

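Notochord-like and node-like cells were taken from 2 single-cell RNA libraries of mouse somitic gastruloids, cultured clumps of embryonic stem cells in which tissues of the embryo form. A cell was a member if it held at least 1 UMI (unique molecular identifier, a counted RNA molecule) of T and of Foxa2, none of Sox17, and at least 1 UMI of Noto, Shh, Chrd, Nog or Foxj1. Cells entered with at least 1000 genes detected and at most 10% mitochondrial UMIs. The rule found 313 members among 13826 cells, with 202 among 7180 cells of the dTAG-13 library and 111 among 6646 cells of the untreated library.

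Both libraries came from E14 embryonic stem cells with a triple reporter, in which the endogenous Zeb2 gene codes for a protein fused to an HA tag and the FKBP12F36V degron. The dTAG-13 group received this degrader, which directs the tagged protein to degradation, at 100 nM at 72 and at 96 h. The control group, called untreated in the labels and given DMSO by the series text, carries the same tagged allele. In both groups aggregates of 300 sorted cells received 3 µM CHIR99021, a WNT pathway activator, at 48 h and were placed in 10% Matrigel at 96 h. About 32 gastruloids were pooled for each library and 10000 live cells were loaded. The sources used here do not state when the gastruloids were harvested. The study asks what changes in the cells of gastruloids when Zeb2 is degraded. Each group is 1 library from 1 line, so differences have no replicate check and no test between libraries was made. Intervals are 95% exact intervals and cover counting error only.

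In the mouse embryo the node is a pit of epithelial cells at the tip of the primitive streak. Its cells carry motile cilia whose flow sets the left-right axis, and it gives rise to the notochord, a midline rod that secretes Shh and BMP antagonists to pattern the neural tube and somites. T (Brachyury) and Foxa2 are the transcription factors that both tissues share, whereas Sox17 marks definitive endoderm. Noto is a homeobox factor of node and notochord, and Foxj1 drives genes of motile cilia.

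The libraries held 7873 barcodes with 176677276 UMIs for dTAG-13 and 7276 barcodes with 158002807 UMIs for untreated gastruloids. Members had a median of 19521 UMIs in the dTAG-13 library and 17597 in the untreated library, against 20742 and 20602 in other cells of these libraries. The median mitochondrial share was 5.98% in dTAG-13 members and 5.92% in untreated members, against 4.76% and 4.56% in other cells. The files shared 14 barcodes, of which 11 passed the cell filters in both and 0 were members. Zeb2 RNA stood at 70.5 CPM (UMIs of a gene scaled to a common total of summed UMIs; 95% Poisson interval 64.2 to 77.3) in dTAG-13 members and at 55.3 CPM (46.0 to 66.0) in untreated members. dTAG-13 acts on the protein, so this transcript does not check the labels.

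Most members fell in 1 cluster, and a part of them did not. When all cells of both libraries were clustered together, cluster 9 held 141 of 202 dTAG-13 members (69.8%, Clopper-Pearson interval 63.0 to 76.1%) and 89 of 111 untreated members (80.2%, 71.5 to 87.1%). The 10 leading genes of that cluster were Defa30, AY761185, Upk3a, Pgam2, Sprr2a3, Lefty1, Psmb8, Nog, Cobl and Isg15. Lefty1 and Nog are node and notochord genes, but Nog is a gene of the rule and Lefty1 was found in a minority of members, so these leading genes check the label weakly. Summed over a list of 35 notochord and node genes from outside the rule, members inside cluster 9 had 2109 CPM with dTAG-13 and 2276 CPM without treatment. Members outside it had 636 and 896 CPM, against 488 and 474 CPM in all other cells. By these genes the members outside cluster 9 stood nearer to other cells. Another 61 dTAG-13 and 22 untreated members lay in other clusters, among them cluster 11, led by the somite gene Meox1, and cluster 16, led by the pluripotency genes Dppa5a and Zfp42. These outside members were deep, with a median of 44680 UMIs in the dTAG-13 library and 23902 in the untreated library, against 16423 and 16479 inside cluster 9. Scrublet, a caller of barcodes that hold 2 cells, marked 20 of the 61 dTAG-13 and 7 of the 22 untreated outside members, against 3 and 2 members inside cluster 9. Outside members supplied 59.7% of all member UMIs in the dTAG-13 library and 32.9% in the untreated library. Sums over all members therefore lean on outside cells, more so for dTAG-13, and values of the members inside cluster 9 are given beside the leading results. The restriction to cluster 9 was chosen after the data had been seen.

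**Figure D1:**
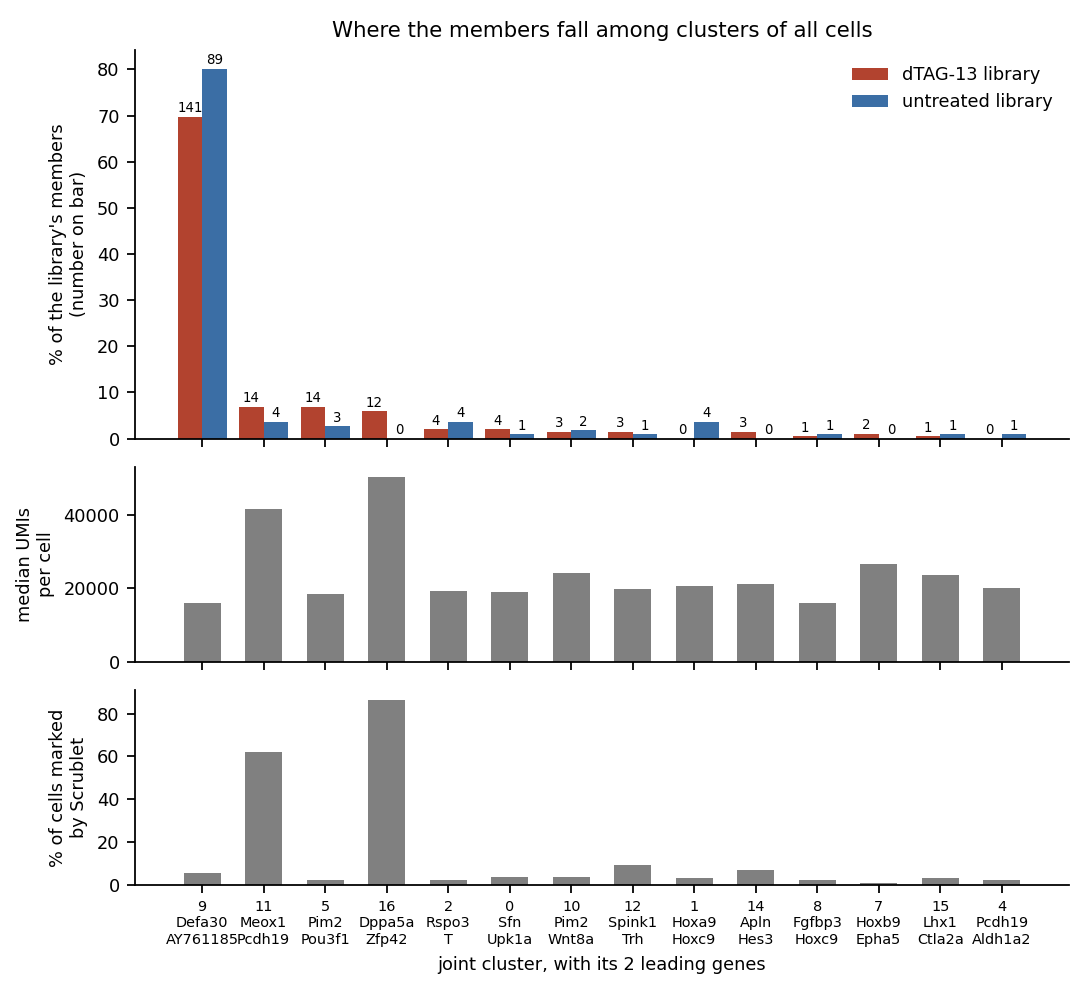
Top, percent of each library's members in each joint cluster, with the number of members on each bar; middle, median UMIs per cell of the cluster; bottom, percent of its cells marked by Scrublet. Cluster 9 holds 141 dTAG-13 and 89 untreated members at a median of 16076 UMIs per cell, while clusters 11 and 16 have medians of 41706 and 50552 UMIs and 62.0% and 86.5% of cells marked.

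The 8 genes of the rule chose the cells, so their levels are a description. T had 221 CPM in dTAG-13 members and 366 CPM in untreated members, against 31.1 and 51.0 CPM in other cells. Foxa2 had 108 CPM in dTAG-13 and 147 CPM in untreated members, against 15.6 and 6.32 CPM in other cells. The median member held 5 UMIs of T in the dTAG-13 library and 6 in the untreated library, and 3 and 2 UMIs of Foxa2. Just inside the threshold, 51 dTAG-13 and 34 untreated members had exactly 1 Foxa2 UMI, and 28 and 14 had exactly 1 T UMI. Just outside it, 187 dTAG-13 and 100 untreated cells held T and Foxa2 without Sox17 but none of the other 5 genes. A further 28 dTAG-13 and 7 untreated cells met every condition except that they held Sox17.

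Nog, which codes for the secreted BMP antagonist Noggin, was the gene that admitted most members, with a UMI in 108 dTAG-13 and 73 untreated members. Chrd, another BMP antagonist of the node, had a UMI in 97 dTAG-13 and 48 untreated members. Shh, the signal of the notochord to the floor plate, was found in 53 and 32 members, Foxj1 in 53 and 25, and Noto in 45 and 42. Most members rested on few of these genes. Exactly 1 of the 5 was detected in 94 dTAG-13 and 43 untreated members, and all 5 in 0 and 3. Of members admitted by Chrd alone, 14 of 32 dTAG-13 and 5 of 11 untreated cells lay in cluster 9. Of those admitted by Nog alone, 22 of 30 dTAG-13 and 13 of 15 untreated cells lay there. For Foxj1 alone these were 6 of 21 and 5 of 7. For Noto alone they were 4 of 5 and 6 of 7, and for Shh alone 4 of 6 and 3 of 3. Noto (chromosome 6, 85423886 to 85428877, plus strand, GRCm38) was often found with Nog. A Nog UMI was present in 26 of the 45 dTAG-13 members with Noto (57.8%) and 30 of the 42 untreated ones (71.4%), against 53.5% and 65.8% of all members. Members without Noto had to hold another of the 5 genes, which raises the share of Nog over all members. These shares therefore cannot tell whether Noto and Nog occur together.

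A UMI can come from free RNA, and detection depends on depth. In cells thinned to 5000 UMIs, Noto was detected in 7.46% of dTAG-13 members (4.24 to 12.01%) and 18.02% of untreated members (11.4 to 26.5%), against 22.3% and 37.8% before thinning. Somite cells defined by Meox1 and Tcf15 without T and Foxa2 should lack Noto. In 487 such dTAG-13 cells and 761 such untreated cells 0 held a thinned Noto UMI, which allows shares of up to 0.616% and 0.394%. Their median depths before thinning were 22728 and 21224 UMIs. Shh was likewise at 0 in both sets of somite cells, against 10.4% of dTAG-13 and 10.8% of untreated members. Nog was not. In thinned cells it was found in 22.9% of dTAG-13 and 39.6% of untreated members, against 0.411% and 0.788% of somite cells. Before thinning, on which the rule works, 4.52% of dTAG-13 and 5.22% of untreated somite cells held a Nog UMI and 1.03% and 0.522% held Chrd, and Noto was in 0% and 0.131%. Members were chosen for holding these genes, so their higher shares were fixed by the rule and are a description. The shares in somite cells tell what those cells, outside the rule, hold. Cells with Sox17 and Foxa2, also outside the rule, held these genes more often before thinning. Chrd was in 15.4% of such dTAG-13 and 18.25% of such untreated cells, Nog in 7.69% and 5.84%, and Noto in 1.62% and 0.730%.

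Of 9672 genes with a mean of at least 5 CPM, 142 (1.47%) were at least 2-fold higher in members than in all other cells of the same library, in both libraries. Of these, 7 are genes of the rule and 4 are predicted genes. Another 25 genes (0.258%) were at least 2-fold lower in both. With the members inside cluster 9 alone, 324 genes were higher and 154 lower. Differences are log2 ratios of CPM with 1 CPM added to each side, which understates the change of low genes. The gene with the largest such difference in its weaker library was Pgam2, a phosphoglycerate mutase known from muscle. It had 59.3 CPM (53.5 to 65.5) in dTAG-13 and 36.1 CPM (28.7 to 44.9) in untreated members, against 3.78 and 1.81 CPM in other cells. Its differences were 3.66 and 3.73. Upk3a, a uroplakin of the urothelial surface, had 39.4 CPM (34.7 to 44.5) in dTAG-13 and 106 CPM (92.7 to 120) in untreated members, against 2.44 and 1.28 CPM in other cells.

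Defa30, which belongs to a defensin family of near-identical copies so that its count is uncertain, had 128 CPM in dTAG-13 and 341 CPM in untreated members, against 13.4 and 12.9 CPM in other cells. Its relative Defa22 was also among the 20 highest, with 10.8 and 24.1 CPM, against 1.27 and 1.12 CPM. Vtn (chromosome 11, 78499091 to 78502324, plus strand, GRCm38) codes for vitronectin, a matrix glycoprotein. Vtn had 16.5 CPM (13.5 to 19.96) in dTAG-13 and 77.6 CPM (66.5 to 90.1) in untreated members, against 1.20 and 1.50 CPM in other cells. Tnnt3, a fast skeletal troponin, had 18.1 CPM in dTAG-13 and 81.2 CPM in untreated members, against 2.13 and 1.85 CPM. Foxd1, a forkhead factor, had 22.9 and 66.0 CPM, against 2.66 and 5.43 CPM. Also among the 20 were Gzmm, Pifo, Samd3, Slit2, Bicc1, Cthrc1, Fam89a, Nav3, Cobl, Scara3, Psmb8 and Tmem176b, with differences between 2.05 and 3.16 in the dTAG-13 library and between 2.08 and 4.20 in the untreated library. Tmem176b overlaps Tmem176a on the opposite strand, so reads of the pair may not be told apart. All 20 are higher inside cluster 9 than among all members of the same library. Cluster 9 was formed from the RNA of these same cells, and Defa30, Upk3a, Pgam2, Psmb8 and Cobl are among its leading genes, so this is a description.

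**Figure D2:**
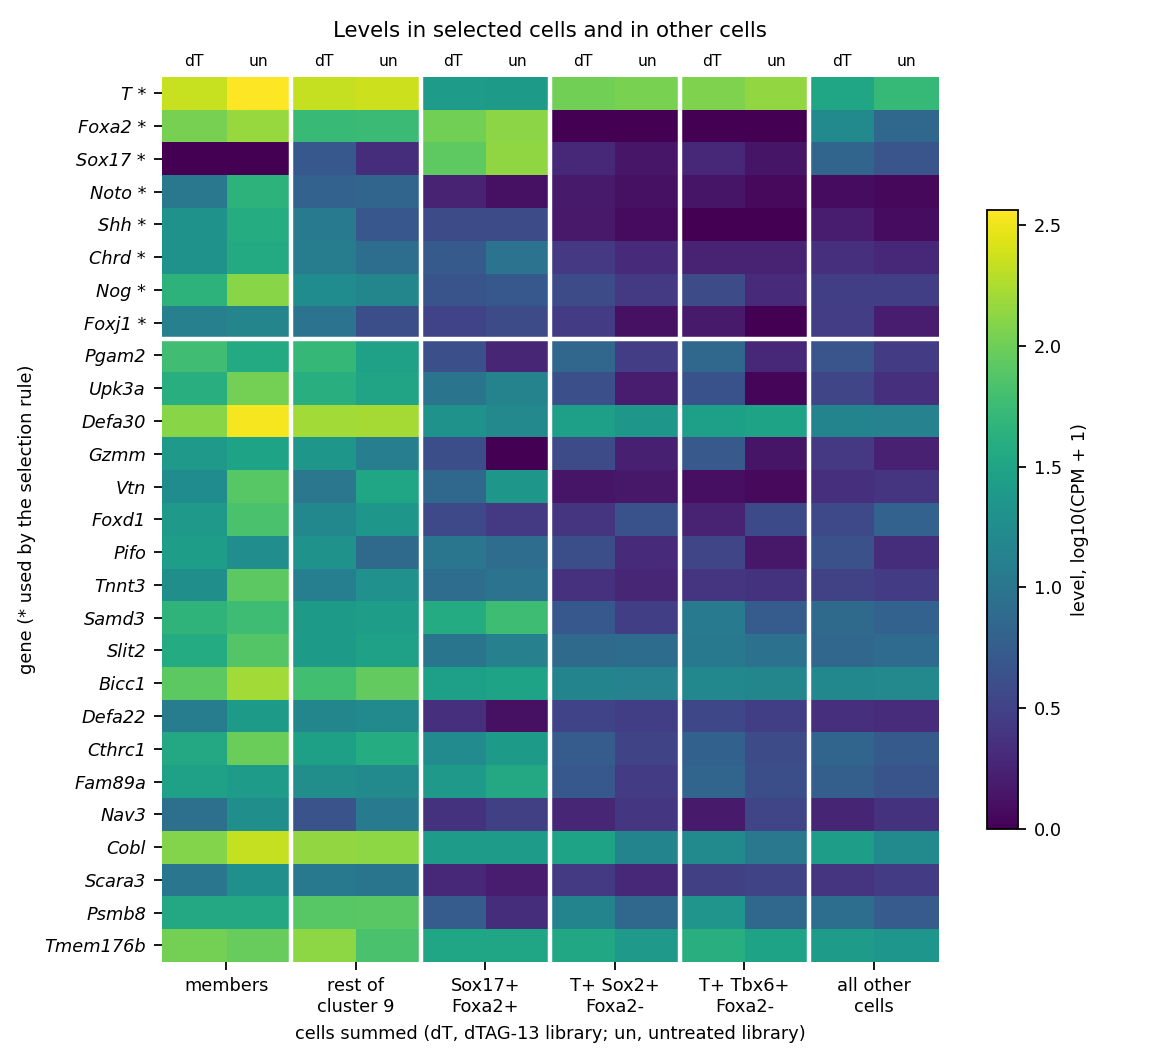
Levels, as log10 of CPM plus 1, of the 8 genes of the rule (asterisks, above the white line) and of other leading genes, summed over members, the rest of cluster 9, 3 sets of cells chosen by their genes, and all other cells, with the dTAG-13 library left of the untreated one in each pair. The genes below the line are dark in the columns of all other cells, where Pgam2 has 3.78 and 1.81 CPM, and bright in members and in the rest of cluster 9.

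Of the list of 35 notochord and node genes from outside the rule, 34 were detected and 24 of these were higher in members at any size in both libraries, against 21.6% of all 24781 detected genes. Only 17975 of the 24781 had a UMI in members of either library. A gene without one cannot be higher, so the 21.6% is a low mark. Of the 26 listed genes that passed the filter on low levels 16 were at least 2-fold higher in both, against 1.47% of all genes, and 0 were lower. The filter takes members into account, and 7 of the 26 reached it only with them, so counts and medians over the 26 are a description. Of the 19 that reached it in other cells alone, 10 were higher, against 0.828% of all such genes. The median difference over the 26 was 1.46 in the dTAG-13 library and 2.45 in the untreated library, against -0.01 and 0.01 over all genes that passed. Among transcription factors, Sox9, a factor of notochord sheath and cartilage, had 65.9 CPM (59.8 to 72.5) in dTAG-13 and 92.8 CPM (80.6 to 106) in untreated members, against 16.8 and 11.5 CPM in other cells, and 120 CPM in both sets of members inside cluster 9. Foxa1, a close relative of Foxa2, had 4.63 and 15.6 CPM, against 1.59 and 0.981 CPM, and had 8.80 and 20.6 CPM inside cluster 9. Mnx1, a homeobox factor of notochord and motor neurons, had 12.5 and 35.7 CPM, against 4.00 and 4.98 CPM, and had 25.6 and 46.6 CPM inside cluster 9. Sox6, a partner of Sox9, had 6.48 and 11.6 CPM, against 1.98 and 2.52 CPM. Gsc and Lhx1, organizer genes of the earlier streak, did not pass. Gsc had 8.64 CPM in dTAG-13 and 6.25 CPM in untreated members, against 12.2 and 8.65 CPM, and Lhx1 had 41.8 and 50.9 CPM, against 57.3 and 48.2 CPM in other cells.

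Of a list of 46 matrix and guidance genes 24 were measured, and 4 of them, Col2a1, Cthrc1, Vtn and Slit2, were higher, against 1.47% of all genes. Of the 23 that reached the filter in other cells alone 3 were higher, against 0.828% of all such genes. Col2a1, the fibrillar collagen of the notochord sheath, had 28.9 CPM in dTAG-13 and 44.6 CPM in untreated members, against 12.1 and 13.2 CPM in other cells. Slit2, a secreted guidance cue of the ventral midline, had 37.1 and 74.5 CPM, against 6.08 and 6.87 CPM. The median of the 24 was 0.06 for dTAG-13 and 0.36 for untreated cells. Of 32 measured epithelial genes, Krt7 and Krt19 were higher and Grhl3 was lower. Krt19 had 106 and 143 CPM, against 29.2 and 12.97 CPM. Krt8 and Krt18, the simple keratins, did not pass in the dTAG-13 library, where their differences were 0.90 and 0.99, against 2.79 and 2.75 in the untreated library. Other cells differed there, with 184 CPM of Krt8 in the dTAG-13 library and 59.8 CPM in the untreated one.

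**Figure D3:**
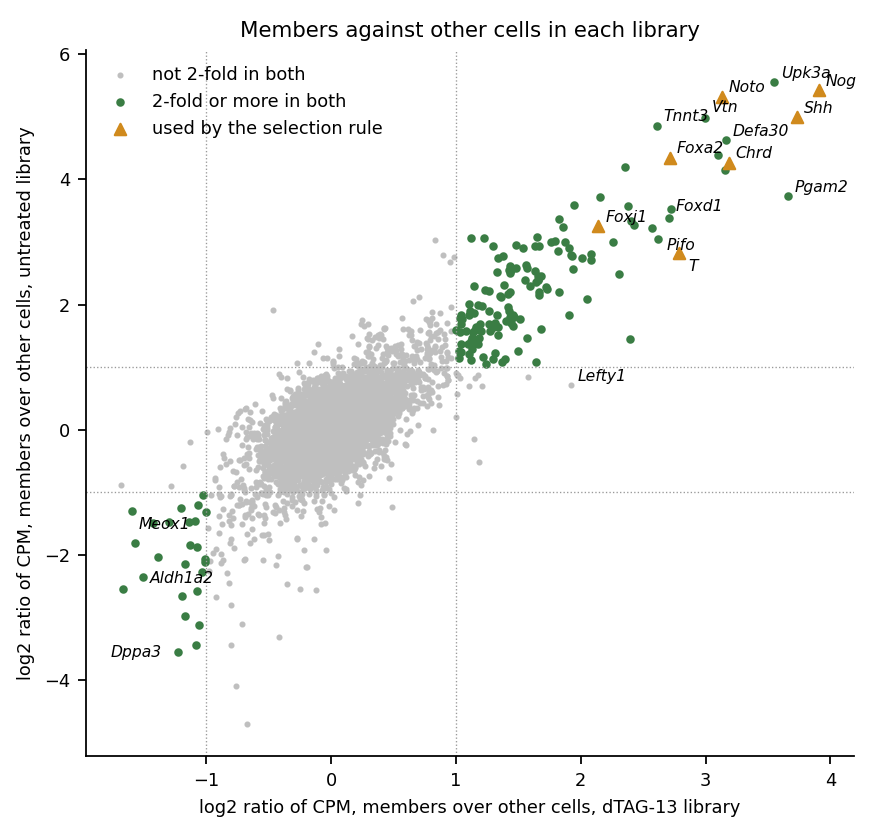
Log2 ratio of CPM, members over other cells, in the dTAG-13 library (x axis) and the untreated library (y axis), for the 9672 genes that passed the filter; green points are 2-fold or more in both in the same direction, triangles are genes of the rule, and dotted lines mark 2-fold. Upk3a, Pgam2, Vtn and Tnnt3 lie at the upper right, whereas Lefty1 lies above 2-fold for dTAG-13 alone.

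Among hedgehog genes, 1 of 15 measured was higher, against 1.47% of all genes. Of the 14 that reached the filter in other cells alone 1 was higher, against 0.828% of all such genes. Ptch1, the Shh receptor and itself a target of the pathway, had 185 CPM (175 to 196) in dTAG-13 and 237 CPM (217 to 258) in untreated members, against 78.3 and 49.6 CPM in other cells. Inside cluster 9 the members had 271 and 265 CPM of Ptch1. Gli1, a transcription factor that rises with pathway activity, had 7.72 CPM in dTAG-13 and 8.03 CPM in untreated members, against 4.42 and 2.72 CPM, with differences of 0.69 and 1.28. Smo, the signal transducer, had 53.1 and 57.6 CPM, against 49.1 and 50.2 CPM, and its differences were 0.11 and 0.19. Gas1, a co-receptor, had 14.1 and 24.1 CPM, against 18.2 and 38.5 CPM.

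Of the left-right genes, 3 of 18 measured were higher, and of the overlapping Nodal list 1 of 19, against 1.47% of all genes. Of those that reached the filter in other cells alone, 2 of 15 left-right and 1 of 18 Nodal genes were higher, against 0.828% of all such genes. Cfc1, the co-receptor Cryptic that Nodal needs in the lateral plate, had 41.4 CPM (36.6 to 46.6) in dTAG-13 and 46.0 CPM (37.5 to 55.7) in untreated members, against 15.8 and 6.01 CPM in other cells, and 73.9 and 63.2 CPM in members inside cluster 9. Pkd1l1, a polycystin of the sensory cilia at the node, had 6.33 and 17.0 CPM, against 0.900 and 0.494 CPM, and had 11.5 and 22.6 CPM inside cluster 9. Its partner Pkd2 had 12.7 and 20.97 CPM, against 10.4 and 10.5 CPM, and did not pass. Bicc1, an RNA-binding protein that acts on Dand5 mRNA at the node, had 81.4 and 162 CPM, against 14.6 and 15.1 CPM. Dand5, the Nodal antagonist of the node crown, had 9.11 CPM (6.93 to 11.8) in dTAG-13 and 40.2 CPM (32.3 to 49.4) in untreated members, against 4.67 and 4.04 CPM. Its differences were 0.83 and 3.03, so it passed 2-fold in the untreated library alone. Nodal had 5.87 and 8.03 CPM in members, against 2.79 and 2.79 CPM, and was below the filter. Gdf1, the partner of Nodal, had 0 UMIs in all cells.

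Lefty1 (chromosome 1, 180935022 to 180938400, plus strand, GRCm38), a secreted Nodal inhibitor of the midline, had 185 CPM (174 to 195) in dTAG-13 members and 62.0 CPM (52.1 to 73.2) in untreated members, against 47.9 and 37.4 CPM in other cells. It was found in few members, 58 of 202 for dTAG-13 and 18 of 111 for untreated. A single member held as many as 168 UMIs in the dTAG-13 library and 43 in the untreated library. Cells of cluster 9 outside the rule had 395 CPM of Lefty1 with dTAG-13 and 392 CPM without treatment.

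Genes of motile cilia were measured in part. Of 134 listed genes, 127 were detected in any cell, and 69 of these were higher at any size in both libraries, against 21.6% of all 24781 detected genes. That share is a low mark, since it counts genes without a UMI in members. Among 70 genes of primary cilia and transport, 35 were higher at any size. The filter was passed by 25 motile cilia genes and 6 of these were at least 2-fold higher, against 1.47% of all genes. Of the 17 that reached it in other cells alone 1 was higher, and the other 5 higher genes reached it only with the members. The 6 were Pifo (Pitchfork, a protein of nodal cilia), Cfap126 and Fam183b (cilia genes), Nme5 (a kinase-family protein of flagella), Ttc25 (a docking factor of outer dynein arms) and Rsph9 (a radial spoke protein). The medians over the 25 were 0.21 and 0.46. Pifo (chromosome 3, 105996957 to 106014646, minus strand, GRCm38) had 25.6 CPM (21.9 to 29.8) in dTAG-13 and 17.0 CPM (12 to 23.3) in untreated members, against 3.33 and 1.18 CPM in other cells, and 44.4 and 25.3 CPM in members inside cluster 9. Cfap126 had 11.6 and 12.5 CPM, against 2.32 and 0.955 CPM. Summed over the list, members had 780 CPM with dTAG-13 and 804 CPM without, against 621 and 588 CPM in other cells, and members inside cluster 9 had 949 and 895 CPM. Genes of primary cilia and intraflagellar transport, which most cells use, gave 0 of 57.

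RFX factors work with Foxj1 on genes of motile cilia and bind sites built on GTTGCC, and forkhead factors such as Foxa2 bind sites near TGTTTGC. Promoters of 300 bases around the start of RefSeq transcripts (GRCm38.p6) were searched on both strands for these letters. GTTGCC or its reverse complement GGCAAC was found in 14.1% of 27025 genes and in 51 of 106 motile cilia genes with a promoter (48.1%). Of the 6 cilia genes above, 4 had a promoter in the table and 2 of them held the motif, against 10 of 17 cilia genes that passed the filter and were not 2-fold higher. TGTTTGC or GCAAACA was found in 5.76% of the same genes, in 4.35% of genes that passed the filter and in 12 of the 99 genes higher in members that had a promoter (12.1%). A related forkhead motif, TGTTTAC or GTAAACA, was found in 5 of the 99 (5.05%), against 4.05% of all genes and 2.97% of those that passed. A promoter of Fam183b, with the motif at 2 places, 1 of Pifo, with the motif at 1 place, and 1 of Noto, a gene of the rule known from node and notochord, are printed to show where the letters lie. They are chr11:58801911-58802210, minus strand, chr3:106001448-106001747, minus strand, and chr6:85423636-85423935, plus strand, each read 5′ to 3′ along its gene. Another Pifo promoter, chr3:106014597-106014896, minus strand, had 0 matches and is not printed. It holds the start of Pifo by the position given above, and the printed one lies inside the gene. Capitals mark GTTGCC or GGCAAC in Fam183b and Pifo and GCAAACA in Noto, and a match is a description of letters, not of binding.
Fam183b: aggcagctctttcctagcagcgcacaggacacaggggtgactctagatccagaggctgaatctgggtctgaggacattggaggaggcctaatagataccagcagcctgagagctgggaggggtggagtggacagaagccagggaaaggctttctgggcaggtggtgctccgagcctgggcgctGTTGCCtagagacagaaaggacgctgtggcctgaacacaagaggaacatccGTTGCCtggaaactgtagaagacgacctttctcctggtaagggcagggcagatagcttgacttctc
Pifo: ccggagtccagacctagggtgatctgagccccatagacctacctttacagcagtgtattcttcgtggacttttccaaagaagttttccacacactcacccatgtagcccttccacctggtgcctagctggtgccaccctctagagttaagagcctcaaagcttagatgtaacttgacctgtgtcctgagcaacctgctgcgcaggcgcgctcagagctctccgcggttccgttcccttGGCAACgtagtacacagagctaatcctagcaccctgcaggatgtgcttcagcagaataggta
Noto: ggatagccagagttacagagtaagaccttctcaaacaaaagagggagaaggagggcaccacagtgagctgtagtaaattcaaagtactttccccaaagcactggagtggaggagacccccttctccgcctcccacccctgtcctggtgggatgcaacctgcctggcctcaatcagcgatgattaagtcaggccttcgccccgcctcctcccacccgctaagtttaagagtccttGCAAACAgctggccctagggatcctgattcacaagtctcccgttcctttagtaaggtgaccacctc

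Members with Foxj1 carried more RNA of motile cilia genes than members without it. Foxj1 was found in 53 of 202 dTAG-13 and 25 of 111 untreated members. The summed level of the motile cilia list was 1074 CPM (1027 to 1123) in dTAG-13 members with Foxj1 and 664 CPM (641 to 688) in those without. In untreated members it was 1289 CPM (1190 to 1393) with Foxj1 and 667 CPM (629 to 706) without. Inside cluster 9 the split was wider. The level was 1800 CPM (1692 to 1913) with Foxj1 and 708 CPM (672 to 746) without for dTAG-13, and 1850 CPM (1675 to 2038) with and 730 CPM (684 to 778) without for untreated members. Other lists were higher with Foxj1 inside cluster 9 as well, and some were lower. Primary cilia and transport genes had 2612 CPM with and 1944 CPM without Foxj1 for dTAG-13, and 2524 and 2018 CPM for untreated members. Epithelial genes had 3706 and 2424 CPM for dTAG-13 and 3356 and 2362 CPM for untreated members. Left-right genes had 1437 and 819 CPM, and 1190 and 765 CPM. Lower with Foxj1 were hedgehog genes, at 746 and 858 CPM for dTAG-13 and 742 and 852 CPM for untreated members. Presomitic genes had 486 and 795 CPM, and 805 and 888 CPM. Hox genes of groups 5 to 9 had 53.8 and 228 CPM, and 149 and 243 CPM. The median depth was 18923 UMIs with Foxj1 and 19921 without for dTAG-13 members, and 15048 and 18498 UMIs for untreated members. Foxj1 is a gene of the rule, so members without it had to hold another of the 5 genes. Foxj1 itself is not in these sums.

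Pifo had the largest difference in its weaker library. Across all genes, 4 of 5815 with enough UMIs (0.0688%) were at least 2-fold higher with Foxj1 in both libraries and 1 (0.0172%) was lower. Pifo had 49.2 CPM in dTAG-13 members with Foxj1 and 16.4 CPM in those without, and 40.6 and 10.3 CPM in untreated members. Efcab10, an EF-hand gene, had 35.5 and 15.9 CPM in dTAG-13 members and 67.0 and 18.3 CPM in untreated members. Inside cluster 9 Efcab10 had 88.5 and 24.1 CPM, and 131 and 21.8 CPM. The other higher genes were the somite genes Tcf15 and Aldh1a2. Inside cluster 9 the differences of Aldh1a2 were -0.99 for dTAG-13 and -2.04 for untreated members, and those of Tcf15 were -0.99 and 0.42. Cfap126, too low for the count, had 85.1 CPM with and 5.40 CPM without Foxj1 in dTAG-13 members of cluster 9, and 67.9 and 7.80 CPM in untreated ones. Lefty1 also went with Foxj1 inside cluster 9, at 698 and 230 CPM for dTAG-13 and 226 and 32.0 CPM for untreated members. Of the members with Foxj1 there, 16 of 33 dTAG-13 and 3 of 17 untreated cells held Lefty1. The untreated level with Foxj1 thus rests on 3 cells. The genes named in these splits were chosen after their values had been seen.

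**Figure D4:**
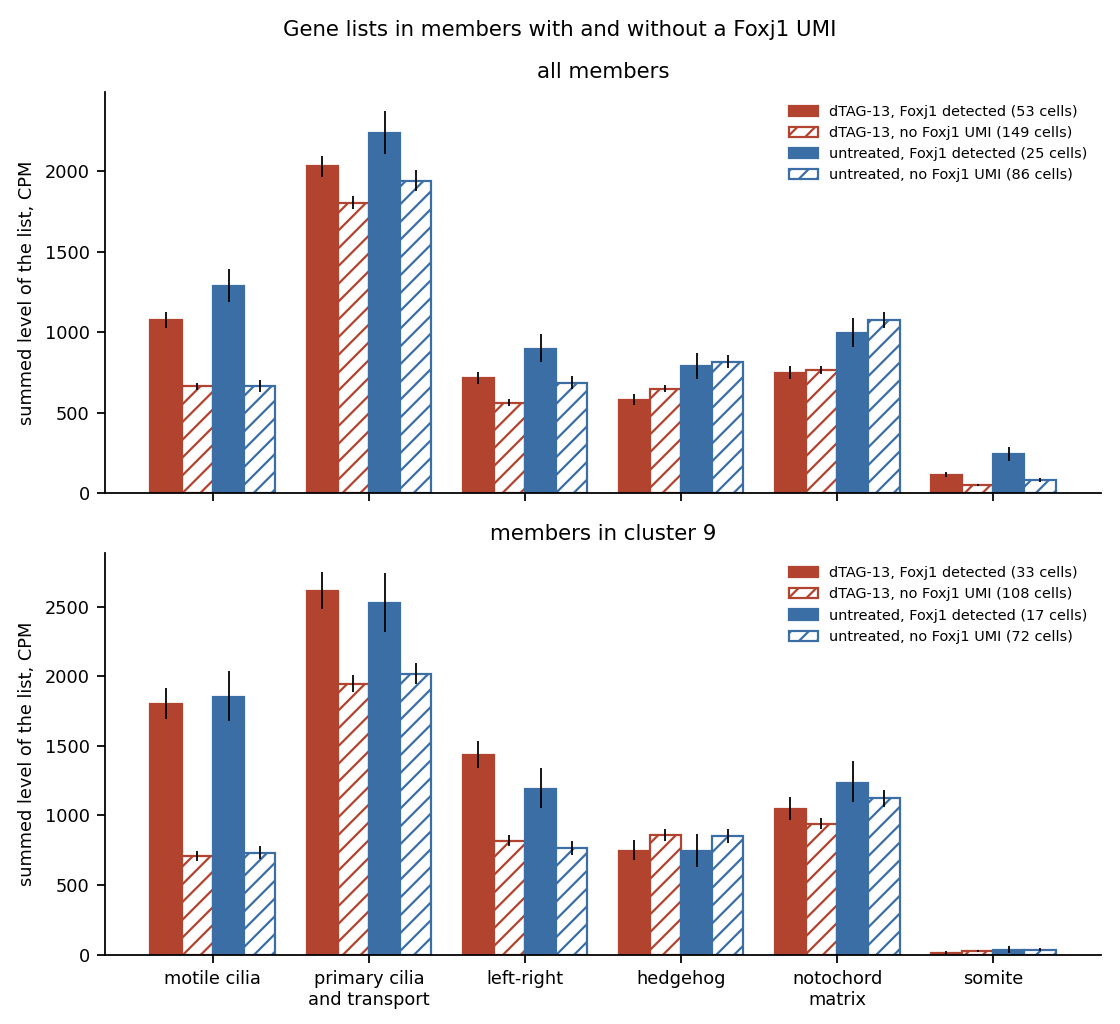
Summed level of 6 gene lists, in CPM, in members with a Foxj1 UMI (filled bars) and without one (hatched bars), for all members (top) and members in cluster 9 (bottom); lines are 95% Poisson intervals. Inside cluster 9 the motile cilia list stands at 1800 CPM with and 708 CPM without Foxj1 in the dTAG-13 library, and somite genes are near 0 in every bar.

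Members with Shh also differed from those without it. Across all genes, 22 of 5821 (0.378%) were at least 2-fold higher with Shh in both libraries and 13 (0.223%) were lower. Of the 53 dTAG-13 members with Shh 50 lay in cluster 9, and of the 32 untreated ones 30. Sox9 had 152 CPM in dTAG-13 members with Shh and 47.8 CPM in those without, and 166 and 64.8 CPM in untreated members. Slit2 had 97.9 and 24.3 CPM in dTAG-13 members and 135 and 51.2 CPM in untreated members. Rab38, a small GTPase of lysosome-related organelles, had 30.3 and 8.97 CPM and 51.5 and 11.1 CPM. Inside cluster 9 these genes stayed higher with Shh, with differences of 0.83 and 0.96 for Sox9, 1.01 and 1.06 for Slit2 and 1.48 and 2.20 for Rab38. Hoxb9, a trunk Hox gene, was lower with Shh over all members, with differences of -2.21 and -1.86. Inside cluster 9 its differences were 0.12 and -0.44.

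Pgam2 and Phlda2 were low in members with Noto. Pgam2 had 11.9 CPM in dTAG-13 members with Noto and 71.7 CPM in those without, and 16.3 and 48.5 CPM in untreated members. Inside cluster 9 it had 22.1 and 155 CPM, and 22.3 and 74.4 CPM. Phlda2, an imprinted gene, had 8.20 and 24.7 CPM in dTAG-13 members and 24.5 and 140 CPM in untreated members. Across all genes, 3 of 5772 (0.052%) were at least 2-fold lower with Noto in both libraries and 1 (0.0173%) was higher. The higher one was Gstm5, a glutathione transferase, with 312 and 146 CPM in dTAG-13 members and 351 and 156 CPM in untreated members. Members with Nog had more Tnnt3 than those without, with 29.1 and 7.55 CPM for dTAG-13 and 110 and 22.0 CPM for untreated, and more Foxd1, with 36.3 and 9.96 CPM and 89.2 and 17.9 CPM. For Nog 6 of 5786 genes (0.104%) were higher and 1 (0.0173%) was lower, and for Chrd 0 (0.0%) were higher and 1 of 5788 (0.0173%) was lower. With Nog, 88 of 108 dTAG-13 and 64 of 73 untreated members lay in cluster 9. Without it these were 53 of 94 and 25 of 38. With Noto, 37 of 45 and 36 of 42 lay there, and without it 104 of 157 and 53 of 69. The levels of Tnnt3, Foxd1, Phlda2 and Gstm5 above are over all members, so cluster and split cannot be told apart for them.

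Of 12 measured Hox genes of groups 5 to 9, 0 were higher in members and 2, Hoxb6 and Hoxc6, were lower, against 0.258% of all genes, with medians of -0.76 for dTAG-13 and -1.36 for untreated members. Their summed level was 453 CPM in dTAG-13 and 480 CPM in untreated members, against 716 and 1139 CPM in other cells. Inside cluster 9 the sums were 190 and 230 CPM, and in members outside it 631 and 989 CPM. Hoxc6 had 14.2 and 15.6 CPM, against 29.7 and 68.2 CPM. Cdx4, a posterior homeobox gene, had 7.56 and 17.4 CPM, against 20.1 and 50.2 CPM, and was at 0 in the members inside cluster 9 of both libraries. Of 6 measured somite genes 2 were lower, Meox1 and Aldh1a2. Meox1, a somite factor, had 10.7 and 23.2 CPM, against 34.3 and 58.5 CPM. Aldh1a2, which makes retinoic acid, had 18.99 and 12.5 CPM, against 55.8 and 67.7 CPM. In members inside cluster 9 Aldh1a2 had 3.83 and 2.66 CPM. The pluripotency list had 2 of 9 lower, Zfp42 and Dppa5a. Of 24 genes of DNA replication 0 passed 2-fold, with medians of -0.25 and -0.34.

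Cells with Sox17 and Foxa2 shared part of this profile. Definitive endoderm and node both arise from the anterior end of the primitive streak. There were 247 such cells in the dTAG-13 library and 137 in the untreated library, none of them members. The sum of the notochord and node list was 1230 CPM in dTAG-13 and 1821 CPM in untreated members, against 1010 and 1142 CPM in Sox17+ Foxa2+ cells, while members inside cluster 9 had 2109 and 2276 CPM. Ppp1r1a, an inhibitor subunit of a protein phosphatase, was among the listed genes and had 112 and 370 CPM in members. Endoderm genes, with 309 and 256 CPM in members, had 2221 and 3434 CPM in these cells. Across all genes 126 of 9706 (1.3%) were at least 2-fold higher in members than in Sox17+ Foxa2+ cells in both libraries and 149 (1.54%) were lower. Vtn had 6.11 and 21.9 CPM and Upk3a 8.68 and 13.1 CPM in Sox17+ Foxa2+ cells, both below the members.

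Progenitors with T and Sox2 and no Foxa2, 893 with dTAG-13 and 1446 untreated, had T at 103 and 111 CPM but a notochord and node sum of 454 and 405 CPM. Relative to them 145 of 9641 genes (1.5%) were higher in members and 40 (0.415%) lower. Presomitic cells with T and Tbx6 and no Foxa2, 227 with dTAG-13 and 697 untreated, had sums of 527 and 421 CPM. There 179 of 9601 genes (1.86%) were higher in members and 70 (0.729%) lower. Vtn had 0.392 and 0.474 CPM in the T and Sox2 progenitors.

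The share of members was higher in the dTAG-13 library. It was 2.81% of 7180 cells (2.44 to 3.22%) with dTAG-13 and 1.67% of 6646 cells (1.38 to 2.01%) without. With every cell thinned to 5000 UMIs the rule found 52 of 7098 cells (0.733%, 0.548 to 0.960%) and 35 of 6558 cells (0.534%, 0.372 to 0.742%), and these intervals overlap. Members inside cluster 9 made up 1.96% of cells (1.66 to 2.31%) with dTAG-13 and 1.34% (1.08 to 1.65%) without. With 1 library per group, the spread of this share between cultures is not known.

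Within members, 119 of 5785 genes with a mean of at least 20 CPM (2.06%) were at least 1.5-fold higher with dTAG-13 than without treatment, and 158 (2.73%) were at least 1.5-fold lower. Among members inside cluster 9, 174 of 5899 genes (2.95%) were higher and 133 (2.25%) lower. Of the 119 genes higher in all members, 66 were also at least 1.5-fold higher inside cluster 9 and 37 in all other cells. Of the 158 lower genes, 71 were also at least 1.5-fold lower inside cluster 9 and 24 in other cells.

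Node and notochord genes were among the lowest with dTAG-13. Of 17 measured genes of the notochord and node list 1 was higher, Lefty1, and 8 were lower, Col2a1, Cthrc1, Bicc1, Mnx1, Ppp1r1a, Cobl, Slit2 and Dand5. The median log2 difference of the 17, dTAG-13 over untreated, was -0.58 in all members and -0.32 in members inside cluster 9, against 0.23 for the same genes in other cells and -0.00061 over all genes measured in members. With cells thinned to 5000 UMIs, which left 52 and 35 members, the median was 0.05, and Col2a1, Cthrc1 and Slit2 turned to 0.07, 0.04 and 0.47. Vtn was lowest, with 16.5 CPM in dTAG-13 and 77.6 CPM in untreated members, a difference of -2.17 (interval of the plain ratio -2.59 to -1.88). Inside cluster 9 it had 36.0 and 110 CPM, a difference of -1.59 (-2.0 to -1.24), and over all cells of cluster 9 the difference was -1.70. In other cells it was -0.19. Thinned to 5000 UMIs, 7.91% of cluster 9 cells (5.60 to 10.8%) held Vtn with dTAG-13 and 21.9% (16.9 to 27.5%) without. The share was 0.205% and 0.394% in the somite cells.

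Ppp1r1a had 112 CPM in dTAG-13 and 370 CPM in untreated members, a difference of -1.71, and 209 and 486 CPM inside cluster 9, a difference of -1.21 (-1.38 to -1.05). Tnnt3 had differences of -2.11 in all members and -1.39 inside cluster 9. Phlda2 had -2.11 and -1.72, and Dand5 had -2.03 and -1.66. All 5 of these genes were also lower over the whole of cluster 9, by 1.17 to 1.70 on the log2 scale, while in other cells their differences lay between -0.24 and 0.26. In thinned cells Vtn, Tnnt3, Phlda2 and Dand5 were lower by 1.06 or more, and Ppp1r1a was at -0.30. Foxd1, Cthrc1 and Mnx1 had differences of -1.49, -1.46 and -1.44 in all members, and of -0.74, -0.84 and -0.84 inside cluster 9. Upk3a and Defa30 both had -1.40 in all members, and -0.71 and -0.92 inside cluster 9. Ets2 had -1.42 in all members, -1.36 inside cluster 9 and -0.85 in other cells.

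The genes of the rule are described without weight, because they chose the cells. Noto had 9.73 CPM (7.47 to 12.4) in dTAG-13 and 44.6 CPM (36.3 to 54.3) in untreated members, a difference of -2.09, and the difference was -1.40 inside cluster 9 and -1.18 over all cells of cluster 9. Nog had 44.2 and 128 CPM, with differences of -1.52, -0.79 and -0.73 in the same 3 sets. Shh had 19.9 and 37.5 CPM, with differences of -0.88, -0.14 and 0.01. Foxj1 had 12.04 and 13.8 CPM, with differences of -0.19, 0.31 and 0.59. T, at -0.73 in all members, was at -0.19 inside cluster 9, and Foxa2, at -0.44, was at 0.14.

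Other midline groups differed in how many genes passed 1.5-fold, where 2.06% of all genes were higher and 2.73% lower. Of 14 measured matrix and guidance genes 2 were higher, Col18a1 and Sdc4, and 6 were lower, among them Col2a1, Cthrc1, Vtn and Slit2. Their median was -0.52 in all members and -0.19 inside cluster 9, and 0.07 in thinned cells. Of 9 measured motile cilia genes 0 passed in either direction, against 2.06% and 2.73% of all genes, and their median was 0.12 in all members and 0.18 inside cluster 9. Of 31 genes of primary cilia and transport 0 passed in either direction. Of 6 hedgehog genes 1 was lower, Gpc3, a membrane proteoglycan, and Ptch1 had a difference of 0.03 inside cluster 9. Of 9 left-right genes 5 were lower, among them Dand5, Bicc1 and Notch1, and Lefty1 was higher. Of 9 Notch genes 5 were lower, Notch1, Notch2, Dll3, Hes7 and Nrarp, with a median of -0.90 in all members and -0.48 inside cluster 9. In thinned cells Dll3 turned to 0.62 and Notch2 to 0.01. Hes7, an oscillating gene of the presomitic mesoderm, had 34.3 CPM in dTAG-13 and 88.8 CPM in untreated members, and 34.8 and 88.5 CPM inside cluster 9. Other cells had 36.6 and 85.2 CPM of Hes7, so a like difference was seen in the rest of the library.

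**Figure D5:**
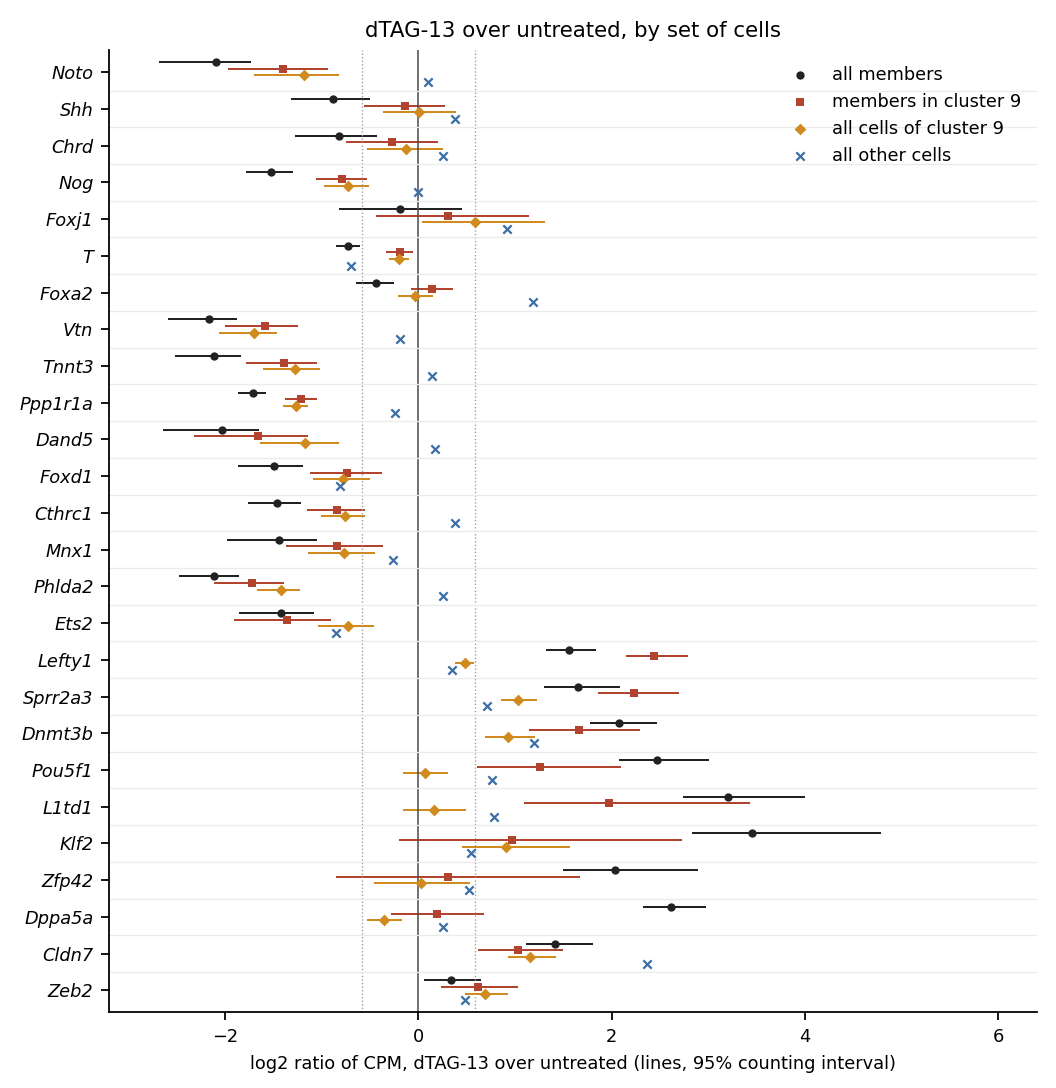
Log2 ratio of CPM, dTAG-13 over untreated, for 26 named genes in all members, members in cluster 9, all cells of cluster 9 and all other cells; lines are 95% counting intervals of the plain ratio and dotted lines mark 1.5-fold. Vtn, Tnnt3, Ppp1r1a, Dand5 and Phlda2 lie below -1 in the first 3 sets and near 0 in other cells, while Klf2 and Dppa5a stand far apart between all members (3.45 and 2.62) and members in cluster 9 (0.97 and 0.19).

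The genes highest with dTAG-13 were those of pluripotent and epiblast-like cells. Klf2, L1td1, Pim2, Dppa5a, Pou5f1, Dnmt3b and Zfp42 had differences of 3.45, 3.21, 2.84, 2.62, 2.47, 2.08 and 2.04 in all members. In thinned cells Pim2, Pou5f1 and Dnmt3b had 2.28, 2.04 and 1.78, while L1td1 had 0.37, Dppa5a 0.35, Klf2 0 and Zfp42 -1.90. Over all cells of cluster 9 Dppa5a had -0.35. The pluripotency list had all 4 of its measured genes higher, against 2.06% of all genes, with a median of 2.54. Its summed level was 532 CPM in dTAG-13 members and 86.6 CPM in untreated members, against 934 and 709 CPM in other cells. In members inside cluster 9 it was 117 and 76.5 CPM, and in members outside 812 and 107 CPM. The 12 members of cluster 16 were all from the dTAG-13 library, and 14 dTAG-13 against 3 untreated members lay in cluster 5, led by Pim2 and Pou3f1. The median of the same 4 genes was 0.64 inside cluster 9 and 0.05 over all cells of cluster 9. Dppa5a had 243 CPM in dTAG-13 and 38.8 CPM in untreated members, and 43.3 and 37.9 CPM inside cluster 9. Dnmt3b, a DNA methyltransferase, had 151 and 34.8 CPM, and 69.3 and 21.3 CPM inside cluster 9.

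The summed levels of Lefty1 and Sprr2a3 were higher with dTAG-13 in members inside cluster 9 too. The difference of Lefty1 was 1.56 (1.32 to 1.84) in all members and 2.44 (2.15 to 2.79) inside cluster 9, where it had 333 CPM in dTAG-13 and 60.5 CPM in untreated members. Over all cells of cluster 9 the difference was 0.48, in other cells 0.35 and in thinned members 4.40. Sprr2a3, from a family of near-identical cornified envelope genes whose counts are uncertain, had 88.9 and 27.7 CPM in members and differences of 1.65 in all members, 2.23 inside cluster 9 and 1.03 over all of cluster 9. Pgam2 had 59.3 and 36.1 CPM in all members, a difference of 0.70, and 120 and 52.6 CPM inside cluster 9, a difference of 1.18.

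Epithelial genes had a smaller median difference in members than in other cells. Of 18 measured, 6 were higher with dTAG-13 and 0 lower, against 2.06% and 2.73% of all genes. Their median was 0.48 in all members, 0.23 inside cluster 9 and -0.01 in thinned members, against 1.41 for the same genes in other cells. Whether these medians differ was not tested. Cldn7, a tight junction claudin, had 93.9 CPM in dTAG-13 and 34.4 CPM in untreated members, a difference of 1.42, and a difference of 1.03 inside cluster 9. In other cells Cldn7 had 99.6 and 18.5 CPM, a difference of 2.37. Krt19, at 106 and 143 CPM in all members, had 198 and 200 CPM inside cluster 9. Cdh1, the epithelial cadherin, had 45.7 and 41.5 CPM in members, against 46.7 and 18.3 CPM in other cells. Zeb2, whose protein is known to repress Cdh1, had differences of 0.34 in all members, 0.62 inside cluster 9 and 0.48 in other cells.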

How the data were processed

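The deposited matrices hold raw UMI counts for each gene in each barcode, from 10x Genomics Chromium 3′ libraries. The submitters' processing notes name Cell Ranger 6.1.2 and mm10. The sources used here do not state a strand setting, and genes that overlap or lie antisense may not be told apart. Of 32285 gene identifiers, 32158 matched GENCODE M21, from which positions were taken.

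Of the barcodes, 693 of the dTAG-13 and 630 of the untreated library were removed by the filters on genes and mitochondrial share, and the rule was then applied to raw counts. Counts were summed over the cells of a set and scaled to CPM, with no estimate of spread, since cells of 1 library are not replicates. Members had 6478318 UMIs in the dTAG-13 library and 2241151 in the untreated library. Counting intervals were Poisson for levels, Clopper-Pearson for shares and the exact conditional interval of 2 counts for plain ratios. The mean over the sums compared had to reach 5 CPM for members against other cells and 20 CPM for the treatment within members. A count of 0 was read as allowing up to 3 counts. Cells were clustered jointly by the Leiden method at resolution 1.0 on 2000 variable genes, 30 components and 15 neighbours, and doublets were kept. The automatic threshold of Scrublet was not used, and the barcodes with the highest scores were marked, at 0.8% per 1000 barcodes. Programs were Python 3.11.15, scanpy 1.11.5, leidenalg 0.10.2, scipy 1.17.1, R 4.3.3 and edgeR 4.0.16, the last for TMM scaling only. Promoters came from RefSeq tables of GRCm38.p6. The counting of genes was tested on simulated data.

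The members and the gene lists were chosen with earlier results of these data known. Named are the genes of the rule and Lefty1, the 20 highest and 10 lowest genes of members over other cells by the weaker library, the 12 highest and 12 lowest with dTAG-13, up to 6 members of each list, and genes of the hedgehog, Nodal and left-right lists. A few genes that this rule picks are not reported here. Genes named for the splits by Foxj1, Shh, Noto and Nog, and in the captions, were chosen after their values had been seen. Alternatives are given at the end.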

Additional observations from a re-analysis of the deposited data

How the results depend on the processing

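No paired analysis was possible because each group is 1 library, and leaving out a replicate was not possible for the same reason. The share of members, dTAG-13 minus untreated, was 1.14 percentage points and stayed above 0 under every alternative that gave one. It was 0.481 points with at least 2 of Noto, Shh, Chrd, Nog and Foxj1, 0.199 with thinned cells, 2.65 for all cells of cluster 9 and 0.625 for members inside it. Numbers of genes moved more. With thinned cells, where the rule found 52 and 35 members, 439 genes were higher and 277 lower in members than in other cells, and 1046 were higher and 860 lower with dTAG-13. With all cells of cluster 9 the same 4 numbers were 241, 90, 49 and 39. With members inside cluster 9, an alternative added after the data were seen, 324 were higher and 154 lower than in other cells. Without barcodes marked by Scrublet 57 genes were lower than in other cells. With at least 2 UMIs of T and Foxa2, 180 were higher and 239 lower with dTAG-13. With at least 2 of those 5 genes, 62 were lower than in other cells and 191 higher with dTAG-13. A prior of 5 CPM gave 84 higher and 7 lower than other cells. The mean of each cell's CPM gave 233 and 89. With no filter on low genes the 4 numbers were 222, 53, 1581 and 1373, and with the filter raised 2 times 14 were lower than in other cells, and 55 higher and 62 lower with dTAG-13. Another 34 values of these 5 results moved by less than 1.5 times or than their interval. TMM scaling gave 138 higher and 27 lower than other cells, and 138 higher and 131 lower with dTAG-13. Of named genes and lists that passed the fold used for counting, 11 values changed sign. Under thinning the treatment differences were 0.42 for Chrd, 0.07 for Col2a1, 0.04 for Cthrc1, 0.62 for Dll3, 0.01 for Notch2, 0.47 for Slit2 and -1.90 for Zfp42, and that of Cfap126 over other cells, untreated, was -1.32. Over all cells of cluster 9 the treatment differences were -0.14 for the median of the pluripotency genes that pass the filter there, -0.35 for Dppa5a and 0.01 for Shh. Medians of lists below that fold are not in this count. Under thinning the treatment median of the notochord and node list went from -0.58 to 0.05. That of matrix and guidance went from -0.52 to 0.07, and that of epithelial genes from 0.48 to -0.01. Motile cilia went from 0.12 to -0.11, primary cilia and transport from -0.14 to 0.01, and Nodal from -0.16 to 0.07. The cause was not tested, except that thinning leaves fewer members.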

Other observations

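Few signalling genes outside the midline lists passed 2-fold in both libraries, where 1.47% of all genes were higher and 0.258% lower. Of 17 measured BMP genes 0 were at least 2-fold higher or lower in members in both libraries, and of 14 Notch genes 0. Of 21 FGF genes 1, Fgf15, was lower. Of 27 WNT genes 2 were higher, Rspo3 and Lgr5, and Cdx4 was lower. Of the 25 WNT genes that reached the filter in other cells alone 1 was higher. Rspo3, a secreted WNT enhancer, had 364 CPM (349 to 378) in dTAG-13 and 607 CPM (575 to 640) in untreated members, against 112 and 198 CPM in other cells. Inside cluster 9 the members had 649 and 716 CPM of Rspo3. Of 8 measured endoderm genes 2 were higher, Cpm and Apela, and Spink1 was lower. Of the 7 endoderm genes that reached the filter in other cells alone 1 was higher. Apela, a secreted ligand of the apelin receptor, had 62.5 CPM in dTAG-13 and 101 CPM in untreated members, against 20.8 and 12.7 CPM. Prrx1, a mesenchymal homeobox factor, had 19.9 and 35.3 CPM, against 5.62 and 5.95 CPM, while its relative Prrx2 had 17.3 and 16.5 CPM, against 39.3 and 47.7 CPM. Of 9 measured genes of the dissociation response Jun was higher and Ier3 lower.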
